A study of Mus musculus with 6 samples.

Results

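The collagen genes were followed in RNA of dorsal root ganglion (DRG) cells from mouse embryos at 18.5 dpc (days post coitum). They were taken as every gene whose symbol has the form Col, a number, the letter a and a number, such as Col1a1, which gave 44 genes of 41388 in the files. By textbook class, 11 encode fibrillar chains, 6 encode type IV chains of basement membranes and 27 encode other collagens. All libraries came from C57BL/6 embryos that carried a Ret-EGFP reporter, which was made to mark cells expressing the receptor tyrosine kinase Ret. The genotype label names it as a transgene, Tg(Ret-EGFP)SJ, and the series' design text as EGFP placed in the Ret locus of heterozygotes, so which of these the embryos carried is not settled here. DRG from spinal levels T11 to S1 were pooled and dissociated, and EGFP-positive cells were sorted; no EGFP-negative or other control arm was analysed here. The 6 libraries were 3 male (A, C and D) and 3 female (A, B and C), and no embryo was shared between them. The A libraries pooled 60 ganglia (3 embryos) per sex, males C and D 40 ganglia (2 embryos), and females B and C 20 ganglia (1 embryo).

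Collagens are trimeric proteins of the extracellular matrix, built from chains that wind into a triple helix. Fibrillar collagens form the tensile fibrils of connective tissue, type IV collagens form the sheet-like scaffold of basement membranes, and the remaining classes decorate fibrils, form short networks or beaded filaments, or span the cell membrane. In a DRG, fibroblasts of the sheaths, Schwann and satellite glial cells and vessel cells are the known main sources, and the basement membrane that surrounds each neuron with its glia contains type IV collagen.

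Total counts ranged from 17861500 to 29330101 per library, and male A was the smallest. A count of 0 in a library allows up to 0.102 to 0.168 CPM (counts scaled to the library's depth), taken as 3 counts; this covers counting error only, because the amplified reads carried no molecular identifiers. Of marker genes for the labelled tissue, all 8 sensory neuron genes were detected in every library, with a summed level of 6000.0 to 8600.4 RPKM. RPKM here is counts per kilobase of the gene's exons, scaled to sequencing depth with totals adjusted by TMM factors (trimmed mean of M values). It sets levels of different genes side by side only approximately, because the length counts all annotated exons, used or not. That length was 12136 bases for Col1a2 against 6563 for Col1a1, and 8326 for Col6a2 against 4380 for Col6a1, which bears on their chain ratios. The library labelled male C held 1860 counts of Xist, which is made in females, against 8 and 12 in the other male libraries and 2014 to 4320 in females, while Y-linked genes were present in all 3 male libraries. It is called male C as labelled, and results between the sexes are also given without it.

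Collagen transcripts were scarce next to neuronal ones in 5 libraries and several times higher in male A. All 44 collagens had at least 1 count in male A, 39 to 43 had one in each other library, and 38 had one in all 6. Collagens took 0.329% of all counts in male A and 0.0454% to 0.0562% in the other 5 libraries, a 6.60-fold difference from their median. Col1a1, Col1a2 and Col3a1 alone took 0.252% in male A against 0.0198% to 0.0250% elsewhere. In bulk RNA, fewer cells of a type and less RNA per cell cannot be told apart, and this holds for each level given here.

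Summed over the 11 fibrillar genes, the level was 276, 21.8 and 24.7 RPKM in males A, C and D and 30.3, 29.5 and 27.1 RPKM in females A, B and C. The 6 type IV genes summed to 30.0, 12.7 and 14.4 RPKM in males A, C and D and 13.5, 14.0 and 13.2 RPKM in females A, B and C. The 27 other collagens summed to 62.5, 30.0 and 30.6 RPKM in males A, C and D and 31.4, 22.8 and 27.5 RPKM in females A, B and C. Male A was the highest library for each class and overlapped with none of the others. Its fibrillar sum was 10.2 times the median of the other 5, against 2.23 times for type IV and 2.08 times for the other collagens. Over all 6 libraries the means were 68.3 ± 102 RPKM (SD, n = 6) for fibrillar, 16.3 ± 6.76 for type IV and 34.1 ± 14.3 for other collagens. Without male A they were 26.7 ± 3.50 (SD, n = 5), 13.5 ± 0.679 and 28.5 ± 3.48 RPKM. In those 5 libraries the fibrillar and other sums differed by less than their SD, and both stood above the type IV sum. The composition differed too, with fibrillar genes holding 74.9% of the summed collagen RPKM in male A and 33.8% to 44.5% elsewhere. Type IV genes held 8.15% in male A and 17.9% to 21.1% elsewhere.

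**Figure D1:**
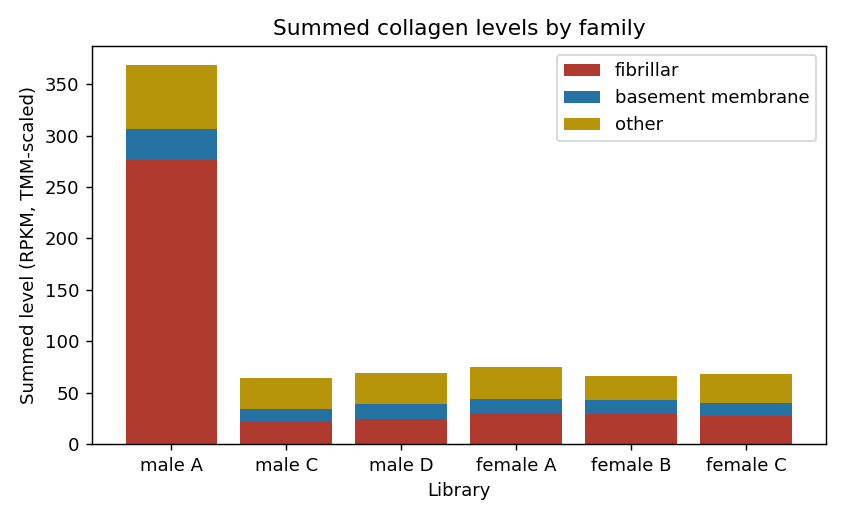
Summed level of the collagen genes in each library (bars, RPKM with TMM-scaled totals), stacked by class: fibrillar (red), basement membrane (blue) and other (yellow). Male A reaches 369 RPKM in all and the other 5 libraries 64.6 to 75.2, and most of the male A bar is fibrillar.

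Only a part of the family was expressed at an appreciable level. Of the 44 genes, 14 had a mean of at least 1 RPKM over the 6 libraries, 5 of them fibrillar, 2 type IV and 7 other. Without male A the number was 11, since Col6a1, Col11a1 and Col18a1 were under that level. Col28a1 was the highest collagen in 4 of 6 libraries, and Col1a1 in male A and female B. In order of the mean of the 5 libraries without male A, the top genes were Col28a1 at 12.5 ± 2.10 RPKM (SD, n = 5), Col1a1 at 9.60 ± 3.00, Col4a1 at 9.34 ± 0.731, Col1a2 at 8.0 ± 0.910, Col3a1 at 5.66 ± 1.505 and Col14a1 at 5.57 ± 0.759. Neighbours in that order differed by less than the larger of their SDs, except at the steps from Col4a1 to Col1a2 and from Col1a2 to Col3a1. Behind them came Col4a2 at 2.88 ± 0.288, Col8a1 at 2.05 ± 0.807, Col26a1 at 1.32 ± 0.172, Col19a1 at 1.15 ± 0.277 and Col5a2 at 1.14 ± 0.147 RPKM, and from Col8a1 on the neighbours again differed by less than the larger SD. The filter on low counts kept 34 of the 44 genes for comparison between libraries, and the 10 left out had 6 to 77 counts summed over all libraries and means of at most 0.199 RPKM. Those were the fibrillar Col11a2, the type VI chains Col6a4, Col6a5 and Col6a6, the type IX chains Col9a1 and Col9a2, the anchoring fibril gene Col7a1, the fibril-associated Col20a1 and the transmembrane Col13a1 and Col17a1.

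**Figure D2:**
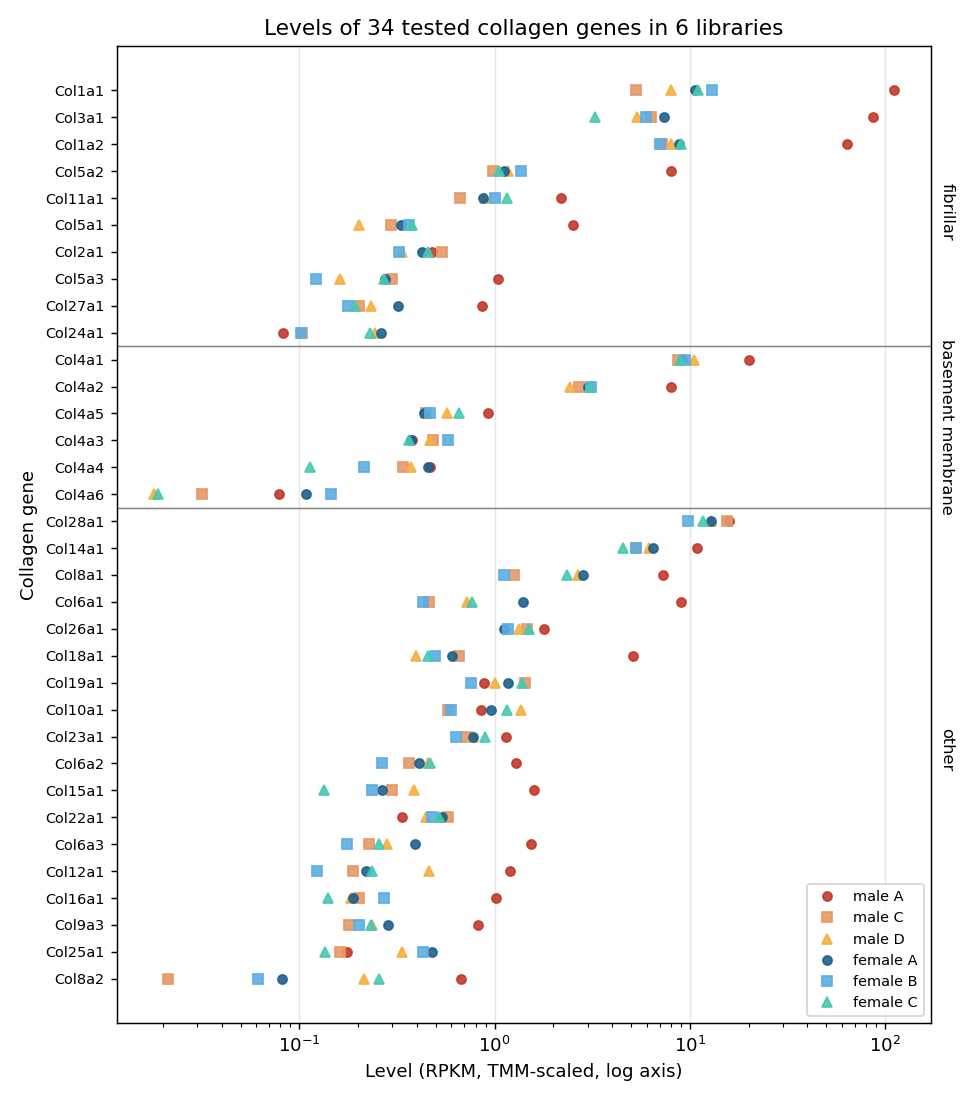
Level of each of the 34 tested collagen genes (rows, ordered by class and mean) in each library (points), as RPKM on a log axis. Male A (red circles) stands to the right of the other libraries for most fibrillar genes, while Col28a1 lies between 9.77 and 15.8 RPKM in all 6.

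To see which collagens varied between libraries, each library was set against the median of the other 5, gene by gene. In male A, 22 of the 34 tested collagens (64.7%) were at least 2-fold above that median, where 9.06% of all 14958 tested genes were. The same rule counted 0 collagens in male C (1.43% of all genes) and 3 in male D (2.34%). Among females it counted 3 in library A (1.95%), 2 in B (3.88%) and 2 in C (3.11%). The 22 comprised 8 of 10 fibrillar, 3 of 6 type IV and 11 of 18 other collagens. The type IV genes among them were Col4a1, Col4a2 and Col4a6, but Col4a6, at 12 counts in male A, was higher in females A and B. Col4a6 and Col8a2 passed the filter on low counts only because male A was among the libraries that reached its cutoff. Male A also held the highest value of the 6 libraries for 26 collagens (76.5%, against 31.1% of all genes). The highest value was in male C for 3 collagens (10.8% of all genes) and in male D for 1 (16.3%). Among females, library A held it for 2 (12.3%), B for 2 (16.6%) and C for none (12.9%). The median ratio of male A to the other libraries was 2.86 over the tested collagens and 0.992 over all tested genes. Just inside the 2-fold line stood Col14a1 at 2.05-fold and Col4a1 at 2.22-fold, and just outside it Col4a5 at 1.97-fold. Col24a1, at 0.358-fold, was the sole collagen at or under 0.5 of the median in male A, where 11.1% of all genes were. As low as that were 6 collagens in male C (4.53% of all genes) and 1 in male D (3.48%), with 1 (2.19%), 4 (4.31%) and 4 (4.25%) in females A, B and C. With any library counted, 24 collagens were at least 2-fold high somewhere, against 16.9% of all genes. With male A left out altogether, 4 were, against 8.72% of all genes: Col12a1 in male D, Col6a1 in female A, Col4a6 in female A and female B, and Col8a2 in male D and female C.

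**Figure D3:**
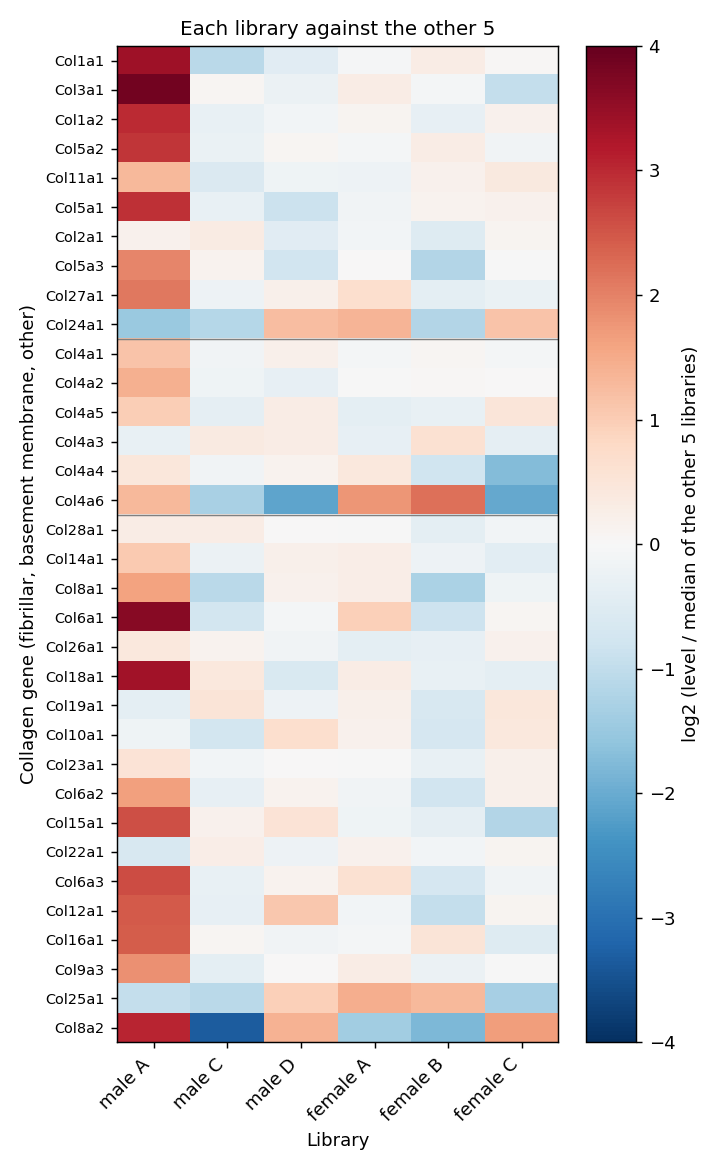
Ratio of each library to the median of the other 5 (colour, log2 scale, red higher and blue lower) for the 34 tested collagens (rows) in the 6 libraries (columns). The male A column is red for 22 genes at 2-fold or more, and the lowest value in it is Col24a1 at 0.358-fold.

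The stretch before the start of transcription is shown for Col3a1, Col8a1 and Col11a1, which were at least 2-fold high in male A. It is also shown for Col28a1 and Col23a1, which were not. Whether these stretches bear on the levels in male A was not tested. The sequences are the 240 bases before the RefSeq start in GRCm38.p6, 5′ to 3′ on the gene's strand, chosen among genes whose stretch holds no exon base. They lie at chr1:45311298-45311537 (plus strand) for Col3a1, chr16:57754738-57754977 (minus) for Col8a1, chr3:114030300-114030539 (plus) for Col11a1, chr6:8192618-8192857 (minus) for Col28a1 and chr11:51289680-51289919 (plus) for Col23a1. Capitals mark matches, on either strand, to 3 short promoter motifs, which do not overlap one another here: TATAAA for the TATA box, CCAAT for the box of that name and GGGCGG for the GC box.
Col3a1: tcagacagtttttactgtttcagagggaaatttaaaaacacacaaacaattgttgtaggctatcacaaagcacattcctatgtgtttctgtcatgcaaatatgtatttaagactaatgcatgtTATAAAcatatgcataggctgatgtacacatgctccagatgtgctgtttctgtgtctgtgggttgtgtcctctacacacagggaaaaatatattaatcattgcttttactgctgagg
Col8a1: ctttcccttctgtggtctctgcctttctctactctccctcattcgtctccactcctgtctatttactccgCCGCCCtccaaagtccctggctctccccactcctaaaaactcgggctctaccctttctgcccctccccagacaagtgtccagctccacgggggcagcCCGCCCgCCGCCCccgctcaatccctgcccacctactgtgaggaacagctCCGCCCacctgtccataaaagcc
Col11a1: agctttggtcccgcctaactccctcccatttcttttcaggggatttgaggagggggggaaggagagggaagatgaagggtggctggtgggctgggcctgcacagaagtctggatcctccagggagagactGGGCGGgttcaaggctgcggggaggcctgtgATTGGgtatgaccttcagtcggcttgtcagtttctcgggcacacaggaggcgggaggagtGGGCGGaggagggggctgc
Col28a1: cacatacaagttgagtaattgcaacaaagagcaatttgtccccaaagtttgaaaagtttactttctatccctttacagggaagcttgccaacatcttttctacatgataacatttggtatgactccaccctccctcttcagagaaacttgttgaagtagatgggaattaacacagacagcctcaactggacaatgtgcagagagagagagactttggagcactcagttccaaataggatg
Col23a1: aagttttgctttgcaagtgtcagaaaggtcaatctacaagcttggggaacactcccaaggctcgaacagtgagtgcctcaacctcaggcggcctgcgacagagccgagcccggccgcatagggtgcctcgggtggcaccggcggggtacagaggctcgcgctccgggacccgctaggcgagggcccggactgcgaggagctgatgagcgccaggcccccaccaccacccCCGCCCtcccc
The Col3a1 stretch holds TATAAA with its first base 117 bases before the start. That of Col8a1 holds 4 GGGCGG, all on the opposite strand, and that of Col11a1 holds GGGCGG at 110 and 19 bases and CCAAT at 79 bases before the start. Col28a1 has none of the 3 motifs in these bases, and Col23a1 has a GGGCGG 11 bases before the start. Among 38 such stretches of 35 collagen genes, 22 (57.9%) hold GGGCGG, 12 (31.6%) CCAAT and 5 (13.2%) TATAAA. Among all 32851 stretches of the same length the shares are 32.4%, 33% and 11.9%. A match describes the letters and is not a test of binding.

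Among the fibrillar genes, the chains of types I and III led. Col1a1 (ENSMUSG00000001506, GRCm38 chromosome 11, 94936224 to 94953042, plus strand), the alpha 1 chain of type I collagen, the main collagen of skin, tendon and nerve sheath, stood at 111, 5.28 and 8.01 RPKM in males A, C and D and 10.6, 13.0 and 11.04 RPKM in females A, B and C. Its partner Col1a2 (ENSMUSG00000029661, chromosome 6, 4504814 to 4541543, plus strand) was at 63.5, 7.17 and 8.05 RPKM in males A, C and D and 8.76, 7.00 and 9.01 RPKM in females A, B and C. Col3a1 (ENSMUSG00000026043, chromosome 1, 45311538 to 45349706, plus strand), which forms the thin fibrils of distensible tissue, was at 86.3, 6.29 and 5.39 RPKM in males A, C and D and 7.34, 6.00 and 3.28 RPKM in females A, B and C. For all 3 genes male A was far above every other library, by 10.5-fold for Col1a1, 7.89-fold for Col1a2 and 14.4-fold for Col3a1 over the median of the other 5. Among those 5 libraries Col1a2 varied least, with an SD of log2 CPM of 0.17 against 0.44 for Col3a1 and 0.51 for Col1a1.

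The type V chains, which seed the fibrils of type I collagen, followed the same pattern at a lower level. Col5a2 (ENSMUSG00000026042, chromosome 1, 45374321 to 45503282, minus strand) was at 8.06, 0.977 and 1.17 RPKM in males A, C and D and 1.12, 1.37 and 1.05 RPKM in females A, B and C. Col5a1 (ENSMUSG00000026837, chromosome 2, 27886425 to 28039514, plus strand) was at 2.51, 0.294 and 0.203 RPKM in males A, C and D and 0.333, 0.365 and 0.377 RPKM in females A, B and C. Male A exceeded the median of the others by 7.20-fold for Col5a2 and 7.53-fold for Col5a1. Col11a1 (ENSMUSG00000027966, chromosome 3, 114030540 to 114220718, plus strand), a chain of cartilage fibrils also made elsewhere, differed less: it was at 2.19, 0.665 and 0.893 RPKM in males A, C and D and 0.874, 1.00 and 1.16 RPKM in females A, B and C, a ratio of 2.45. Some fibrillar genes, named here after their values were seen, were not higher in male A than in every other library. Col2a1, the main cartilage collagen, lay between 0.323 and 0.538 RPKM with male A at 0.479. Col24a1, a minor fibrillar collagen, was lowest in male A at 0.0823 RPKM (12 counts) and reached 0.263 in female A.

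Among the type IV genes, the abundant pair Col4a1 and Col4a2 varied little beyond male A, while the scarce Col4a4 and Col4a6 varied strongly. Col4a1 (ENSMUSG00000031502, chromosome 8, 11198423 to 11312826, minus strand), one of the main chains of every basement membrane, was at 20.2, 8.67 and 10.5 RPKM in males A, C and D and 9.07, 9.48 and 8.93 RPKM in females A, B and C. Col4a2 (ENSMUSG00000031503, chromosome 8, 11312805 to 11449287, plus strand), its partner in the trimer, was at 8.03, 2.72 and 2.45 RPKM in males A, C and D and 3.03, 3.12 and 3.08 RPKM in females A, B and C. Male A was the highest library for both, and the other 5 lay close together, with an SD of log2 CPM of 0.11 for Col4a1 and 0.15 for Col4a2. Over all tested genes the median of that SD was 0.29 without male A. The other type IV chains build the specialised basement membranes of kidney, ear and eye and were all under 1 RPKM. Col4a5 (ENSMUSG00000031274, X chromosome, 141475385 to 141689234, plus strand) was at 0.925, 0.447 and 0.571 RPKM in males A, C and D and 0.435, 0.469 and 0.656 RPKM in females A, B and C. Col4a3 (ENSMUSG00000079465, chromosome 1, 82586921 to 82722059, plus strand) ranged from 0.367 to 0.577 RPKM, with male A at 0.377 among the lower values. Col4a4 (ENSMUSG00000067158, chromosome 1, 82448423 to 82586849, minus strand) ranged from 0.113 RPKM in female C to 0.468 in male A, an SD of log2 CPM of 0.76 (0.77 without male A). Col4a6 (ENSMUSG00000031273, X chromosome, 141165403 to 141474076, minus strand) rested on 3 to 21 counts per library, with an SD of 1.05 (1.14 without male A). In Col4a3, 563 exon bases (5.65% of its length) lie on the opposite strand to C430014B12Rik, and whether counting used strand is not known here.

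Of the other collagens, Col28a1 (ENSMUSG00000068794, chromosome 6, 7997808 to 8192617, minus strand), a collagen known from DRG and peripheral nerve, was the highest. It stood at 15.8, 15.6 and 12.8 RPKM in males A, C and D and 12.8, 9.77 and 11.8 RPKM in females A, B and C. Male A was close to the others here, at 1.24 times their median. Col14a1 (ENSMUSG00000022371, chromosome 15, 55307750 to 55520803, plus strand), a fibril-associated collagen that coats type I fibrils, was at 10.9, 5.31 and 6.18 RPKM in males A, C and D and 6.46, 5.32 and 4.57 RPKM in females A, B and C. Col8a1 (ENSMUSG00000068196, chromosome 16, 57624258 to 57754737, minus strand), a short-chain collagen of vessel walls and the cornea, was at 7.26, 1.26 and 2.67 RPKM in males A, C and D and 2.84, 1.12 and 2.36 RPKM in females A, B and C. Beside the high value in male A, Col8a1 thus split the other libraries, with male C and female B lowest.

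Type VI collagen forms beaded filaments close to basement membranes. Col6a1 (ENSMUSG00000001119, chromosome 10, 76708792 to 76726168, minus strand) was at 8.98, 0.462 and 0.722 RPKM in males A, C and D and 1.41, 0.429 and 0.766 RPKM in females A, B and C. Col6a2 (ENSMUSG00000020241, chromosome 10, 76595762 to 76623630, minus strand) was at 1.29, 0.365 and 0.455 RPKM in males A, C and D and 0.411, 0.266 and 0.469 RPKM in females A, B and C. Col6a3 was 6.06-fold higher in male A than the median of the others. The ratio was 12.4 for Col6a1 and 3.14 for Col6a2, so the excess in male A differed between chains of this trimer.

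The multiplexins Col18a1 and Col15a1 encode basement membrane zone collagens whose cleaved ends include endostatin. Col18a1 (ENSMUSG00000001435, chromosome 10, 77052178 to 77166548, minus strand) was at 5.13, 0.658 and 0.396 RPKM in males A, C and D and 0.604, 0.496 and 0.456 RPKM in females A, B and C. Col15a1 (ENSMUSG00000028339, chromosome 4, 47208161 to 47313167, plus strand) was at 1.60, 0.299 and 0.385 RPKM in males A, C and D and 0.266, 0.235 and 0.134 RPKM in females A, B and C. Male A was 10.3-fold above the median of the others for Col18a1 and 6.00-fold for Col15a1. Col12a1 (ENSMUSG00000032332, chromosome 9, 79598991 to 79718831, minus strand), a fibril-associated collagen of dense connective tissue, was at 1.20, 0.189 and 0.459 RPKM in males A, C and D and 0.219, 0.124 and 0.237 RPKM in females A, B and C. Col16a1 and Col9a3, also fibril-associated, were 5.40-fold and 3.54-fold high in male A. In Col9a3, 234 exon bases (6.07% of its length) overlap Tcfl5 on the opposite strand, and whether counting used strand is not known here.

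A further group of collagens, chosen after their values were seen, was not 2-fold high in male A. Col26a1 ranged from 1.12 RPKM in female A to 1.80 in male A, and the transmembrane Col23a1 from 0.637 to 1.14. Col19a1, a fibril-associated collagen known from neurons as well, ranged from 0.755 to 1.43 RPKM, with male A at 0.887. Col22a1, a collagen of tissue junctions, was lowest in male A at 0.335 RPKM and ranged from 0.448 to 0.574 elsewhere. Col25a1, a transmembrane collagen made by neurons, varied between the other libraries, from 0.135 RPKM in female C to 0.478 in female A, with male A at 0.175, and was 2.73-fold above the median of the others in female A and 2.46-fold in female B. Col10a1, the collagen of hypertrophic cartilage, ranged from 0.576 to 1.36 RPKM, but it lies within the span of Nt5dc1 on the opposite strand, a gene with 105 to 156 counts per library against 34 to 89 for Col10a1.

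The spread between libraries was summarised by the SD of log2 CPM (prior count 2) over the 6 libraries. Its median was 0.76 over the tested collagens and 0.36 over all tested genes, and 27 of 34 collagens lay above the latter. By class the median was 1.09 for fibrillar, 0.54 for type IV and 0.76 for other collagens. Without male A it was 0.33, 0.26 and 0.35, 0.32 for all collagens and 0.29 for all genes, with 21 of 34 collagens above the all-gene median.

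Many markers of cell types beside neurons were higher in male A too, and their part in the collagen values was not tested. The share of all tested genes at least 2-fold high in male A, the background for these counts, was 9.06%. Of the endothelial markers, 6 of 6 tested (of 7 listed) were at least 2-fold high in male A, with a summed level of 9.28 RPKM against 1.10 to 2.31 in the other libraries. Among satellite glia and Schwann cell markers the count was 7 of 10, at 707 RPKM against 436 to 551, but Fabp7, the most abundant of them, was lowest in male A, at 269 RPKM against 331 to 439, and Cdh19 was at 1.02 times the median of the others. Fibroblast and meningeal markers gave 5 of 7 tested (of 10 listed), at 238 RPKM against 165 to 244, a range that overlaps, and Dcn and Ogn were not higher in male A. For pericyte and mural markers it was 2 of 6 tested, at 16.9 RPKM against 9.19 to 16.3, and for macrophage markers 1 of 1 tested (of 5 listed), at 2.28 against 0.383 to 1.14. None of the 8 neuronal markers was 2-fold high, at 6107 RPKM against 6000.0 to 8600.4. Of cartilage, bone and skeletal muscle markers none of the 5 tested (of 15 listed) was 2-fold high in male A, and Sp7 and Myog had no count in any library.

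Chains that assemble into the same molecule were set against each other within each library, where both had at least 10 counts in every library. The Col1a1 to Col1a2 ratio was 1.75, 0.737 and 0.995 in males A, C and D and 1.21, 1.86 and 1.22 in females A, B and C, a mean of 1.30 ± 0.434 (SD, n = 6). Male A was inside the range of the others for this pair, although both chains were several times higher in it. For Col4a1 to Col4a2 the ratio was 2.51, 3.19 and 4.31 in males A, C and D and 3.00, 3.04 and 2.90 in females A, B and C, a mean of 3.16 ± 0.607. These genes are transcribed in opposite directions from start sites 21 bases apart, and their exons overlap by 22 bases. For Col5a1 to Col5a2 the ratio was 0.312, 0.302 and 0.174 in males A, C and D and 0.298, 0.267 and 0.358 in females A, B and C, a mean of 0.285 ± 0.0619. The Col6a1 to Col6a2 ratio set male A apart, at 6.95, 1.27 and 1.59 in males A, C and D and 3.42, 1.62 and 1.63 in females A, B and C, a mean of 2.75 ± 2.20. Col4a3 and Col4a4, whose start sites lie 72 bases apart on opposite strands, had a ratio of 0.807, 1.43 and 1.24 in males A, C and D and 0.824, 2.70 and 3.24 in females A, B and C, a mean of 1.71 ± 1.02. The lowest values of this last pair were in the 2 libraries of 3 embryos and the highest in the 2 libraries of 1 embryo, with 24 counts of Col4a4 in female C; whether pool size bears on the ratio was not tested. For Col9a1 with Col9a3, Col8a1 with Col8a2 and Col4a5 with Col4a6 a chain fell under 10 counts in some library, so no ratio is given.

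**Figure D4:**
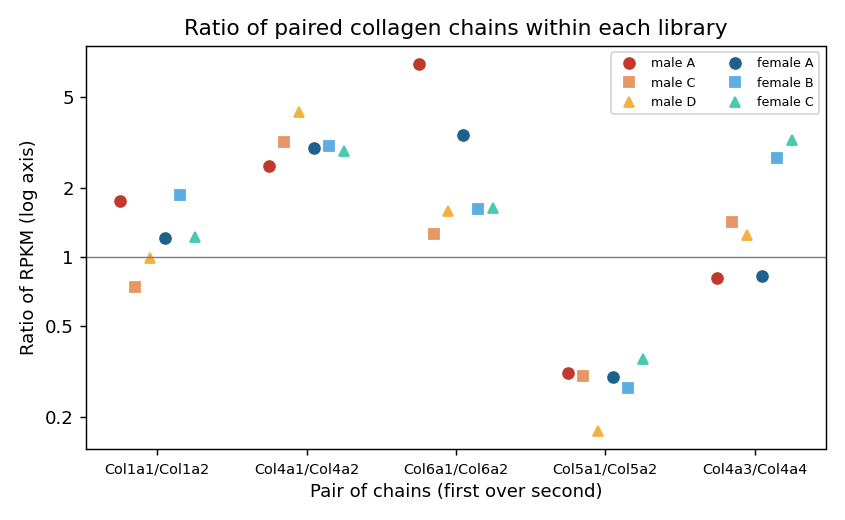
Ratio of the RPKM of paired chains (first over second, log axis) in each library (points) for the 5 pairs with at least 10 counts of both chains throughout. The Col1a1 to Col1a2 and Col5a1 to Col5a2 ratios of male A lie within the range of the other libraries, while its Col6a1 to Col6a2 ratio of 6.95 is the highest.

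No collagen passed the test between the sexes, which are the grouping that the labels give. Of 34 tested collagens, 0 passed an adjusted p under 0.05 in edgeR's quasi-likelihood test with Benjamini-Hochberg adjustment over 14958 genes, where 4 genes (0.0267%) passed in all. DESeq2 and limma voom called 0 collagens as well, but DESeq2 gave no adjusted p for Col3a1, so it could not call that gene. At an unadjusted p under 0.05 there were 5 collagens (14.7%), against 4.42% of all genes. The fitted change was below 0, lower in females, for 30 of the 34 (88.2%, against 50.5% of all genes), with a median log2 change of -0.68 against -0.0036 over all genes. By class, 9 of 10 fibrillar genes (median -1.31), 5 of 6 type IV genes (median -0.41) and 16 of 18 others (median -0.79) were on the lower side. These directions rest on male A: without it 16 of 35 were lower and 19 higher, with a median of 0.03. Without male C, 28 of 34 were lower, the median was -0.95 and again no collagen passed. Libraries of the 2 sexes did not overlap for 2 collagens, Col15a1 and Col28a1, both lower in females (5.88% of the 34, near the 3.88% of all genes), and for 0 higher in females (4.18%). Under other scalings, tried after seeing the data, the 2 were the same with RLE factors, Col15a1 alone remained with upper quartile factors (2.94%, against 4.48% of all genes), and with plain totals they were Col15a1 and Col4a1 (5.88% against 6.44%).

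The collagens with the smallest p were Col15a1, Col12a1, Col3a1 and Col18a1, and all were highest in male A. Col15a1 was at 0.760 ± 0.725 RPKM (SD, n = 3) in males and 0.212 ± 0.0690 in females, a log2 change of -1.83 (SE 0.656; adjusted p = 0.961, edgeR), and its sexes did not overlap. For Col12a1 the levels were 0.618 ± 0.526 and 0.193 ± 0.0608 RPKM, a log2 change of -1.67 (SE 0.607). Col3a1 stood at 32.6 ± 46.4 RPKM in males and 5.54 ± 2.07 in females, a log2 change of -2.56 (SE 0.964), and the ranges overlapped. For Col18a1 the values were 2.06 ± 2.66 and 0.519 ± 0.0767 RPKM, a log2 change of -1.98 (SE 0.829). All 34 collagens had adjusted p-values (edgeR, Benjamini-Hochberg) between 0.961 and 0.998. Col28a1 was at 14.7 ± 1.69 RPKM in males and 11.4 ± 1.53 in females, a log2 change of -0.37 (SE 0.202; adjusted p = 0.961, edgeR). Its sexes were barely apart with TMM factors, at 62.48 CPM in male D and 62.47 in female A, and overlapped with plain totals, at 60.9 and 63.0 CPM. Without male A the change was between -0.68 and -0.73 for Col15a1 and Col12a1 and near 0 for Col3a1 (-0.08) and Col18a1 (-0.03). With the replicate letter as a block, Col3a1 alone passed, at a log2 change of -2.25 and an adjusted p of 0.00137 (edgeR), though libraries with the same letter came from different embryos. That fit left 1 residual degree of freedom, against 4 in the main fit. Only the letters A and C occur in both sexes, so the change comes from males and females A and C.

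**Figure D5:**
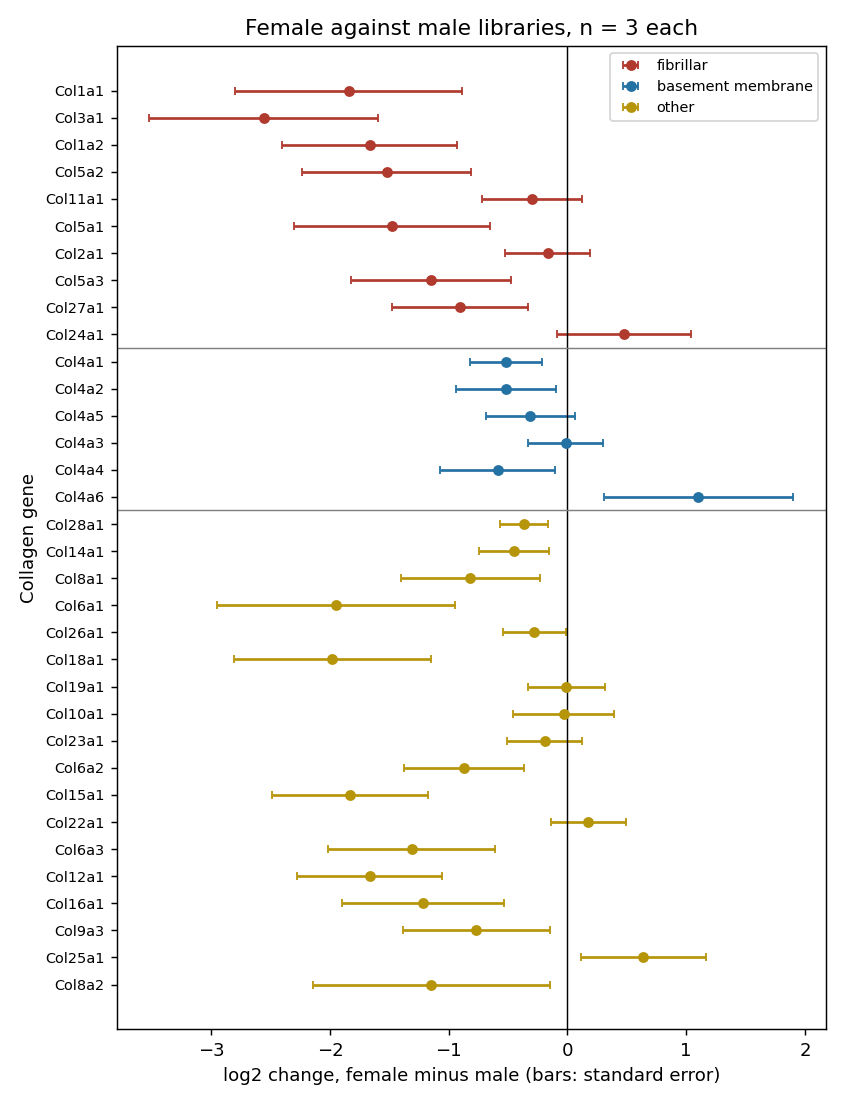
Log2 change of female against male libraries (points, n = 3 each; bars, standard error) for the 34 tested collagens, by class. Of them 30 lie left of 0, lower in females, and none passed the adjusted threshold; without male A, 16 of 35 were lower.

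Genes that make, modify, bind or degrade collagen were examined beside it. Of 54 such genes, 44 were tested, 0 passed between the sexes in edgeR. At an unadjusted p under 0.05 there were 2, Adamts3 and Lum (4.55%, near the 4.42% of all genes). In male A 19 were at least 2-fold high (43.2%, against 9.06% of all genes), with a median ratio of 1.67. Serpinh1, the collagen chaperone HSP47, was at 231, 65.3 and 44.1 RPKM in males A, C and D and 63.9, 69.7 and 81.7 RPKM in females A, B and C. Male A was thus 3.53-fold high for this chaperone, against 10.2-fold for the summed fibrillar genes it serves. The ratio was 7.99 for Fkbp10, listed in the same role and named after its values were seen. P4hb, a subunit of prolyl 4-hydroxylase, was at 219.8 RPKM in male A and 104 to 128 elsewhere, and Ppib, a prolyl isomerase, at 166 against 103 to 138. Plod1, a lysyl hydroxylase, was at 22.2 RPKM in male A against 9.26 to 13.7, and Colgalt1, which adds galactose to hydroxylysine, at 16.2 against 11.3 to 12.9. These modifying enzymes were highest in male A, by less than the summed fibrillar genes were.

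Later steps of the pathway were mixed. At least 2-fold high in male A were 3 of 6 tested procollagen proteinases and enhancers and 3 of 4 cross-linking enzymes. So were 3 of 4 fibril-binding proteoglycans and 2 of 3 proteinases that cut collagen, against 9.06% of all genes. The count was 2 of 4 for chaperones and export, 3 of 9 for prolyl hydroxylases and 2 of 5 for lysyl hydroxylases and glycosyltransferases. Mia3, which exports bulky procollagen from the endoplasmic reticulum, was at 6.48 RPKM in male A and 6.37 to 11.9 elsewhere. Adamts3, a procollagen N-proteinase, was lowest in male A at 10.0 RPKM, with 15.4 and 19.2 in males C and D and 23.4, 22.0 and 26.3 in females A, B and C. Its log2 change between the sexes was 0.69 (SE 0.253; adjusted p = 0.961, edgeR), and the sexes did not overlap. Pcolce2, an enhancer of C-propeptide removal, was even across libraries at 2.36 to 3.29 RPKM, whereas its relative Pcolce, named after its values were seen, was 12.9-fold high in male A. Of cross-linking enzymes, Pxdn, which links type IV collagen, lay between 5.87 and 9.80 RPKM, and Lox, which links fibrillar collagen, was at 1.62 in male A against 0.461 to 1.29. The fibril-binding proteoglycan Dcn was at 138 RPKM in male A and 129 to 190 elsewhere, with male A inside that range, while Bgn was at 18.3 against 5.39 to 6.56.

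Of 9 tested collagen receptor genes, 1 was 2-fold high in male A (11.1%, near the 9.06% of all genes), the integrin subunit Itga1 at 2.12-fold. Itgb1, the beta subunit of the collagen-binding integrins, was at 80.3 RPKM in male A and 60.9 to 104 elsewhere. Adgrg1, an adhesion receptor that binds type III collagen, was at 24.6 RPKM in male A and 15.4 to 30.8 elsewhere. Itga2, another integrin subunit, and Ddr1, a receptor tyrosine kinase for collagen, were at 1.74 and 1.66 times the median of the others in male A; these and Itga1 were named after their values were seen. Among proteinases that cut collagen, Ctsk was at 16.4 RPKM in male A against 10.3 to 15.2, and Mmp14, a membrane-bound collagenase, at 9.21 against 3.45 to 4.32.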

How the data were processed

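The submitters' processing notes name Subread (no version given), featureCounts 1.4.5 for the counting and the build GRCm38.p2; the settings for strand and for reads with several matches are not known here. The labels describe SMARTer amplification of total RNA from pooled, sorted cells. The authors deposited raw counts per Ensembl gene with the gene's exon length, and CPM and RPKM columns computed from them; the deposited CPM and RPKM were recomputed from the counts with differences of at most 4.5e-11 and not used further. Symbols were found for 40254 of 41388 identifiers in a table of GENCODE M21.

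RPKM in the text was computed from counts, length and TMM-scaled totals with edgeR 4.0.16 in R 4.3.3. The sexes were compared by edgeR's quasi-likelihood F-test over genes kept by filterByExpr, with sex as the only term and Benjamini-Hochberg adjusted p under 0.05 as the threshold. Libraries came from separate embryos, pooled or single. Each p-value sets the difference between the sexes against the spread between such libraries, estimated with information from all tested genes. Class sums, ratios of a library to the median of the other 5, and chain ratios carry no test. Alternatives were other scalings and filters, DESeq2 1.42.0, limma 3.58.1 voom, a robust fit, leaving out libraries, the replicate letter as a block, the form of the record as a term, TPM and other fold thresholds. Near copies were searched with blastn 2.17.0 (at least 95% identity over 150 bases), and Col6a5 and Col6a6 share 572 bases. Col4a3 matched C430014B12Rik over 573 bases and Col9a3 matched Tcfl5 over 234 bases. These last pairs are genes whose exons overlap on opposite strands, by 563 and 234 bases, and not copies elsewhere. The script was tested on simulated data, where it recovered 24.2% of 2-fold and 85.1% of 4-fold changes between the sexes, with 4 false calls. A 2-fold change was thus often missed there. These shares need not hold for collagens with a wide spread between libraries, such as Col3a1, whose log2 change of -2.56 had an SE of 0.964.

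The collagens and gene lists were chosen with earlier results of these data known. Named were the 3 highest collagens of each class, those of at least 1 RPKM that were 2-fold high in any library, the 4 with the smallest p, the chains of each ratio and the 2 highest genes of each pathway role; other names were picked with their values in view, including Col6a3, Col16a1, Col9a3 and the collagens that the filter left out. Promoter sequences are from RefSeq.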

Additional observations from a re-analysis of the deposited data

How the results depend on the processing

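Male A moved the class sums and the changes between the sexes. Leaving out each library in turn moved the mean class sums to between 26.7 and 77.6 RPKM for fibrillar, 13.5 and 17.0 for type IV and 28.5 and 36.4 for other collagens, with each lower end reached without male A. As TPM the sums were 191.6, 45.7 and 96.2. The 22 collagens at least 2-fold high in male A were 23 at 1.5-fold, 17 at 3-fold, 22 with RLE factors, 23 with plain totals and 19 with a filter of 1 CPM. In the sex comparison 0 collagens were called under each leave-one-out fit (0 to 0), and 1 with the replicate block, in which the letters A and C are shared by both sexes. No paired reading follows from the labels, since the embryos differ and deviations of same-lettered libraries correlated at -0.08 (A) and 0.05 (C). Calls over all genes, 4 in the reported fit, were 14 without a low-count filter, 13 with DESeq2 and 1 with limma voom. With the replicate block they were 77, and with the form of the record as a term 0. Leaving out each library in turn gave 0 to 5. Only females B and C, the libraries of 1 embryo, had an age field in place of a developmental stage field. Record form thus cannot be told apart from pooling, and with that term the change between the sexes rests on female A and the males. In the 4 libraries with a developmental stage field, which hold 1 female, the median log2 change of the tested collagens was -0.53. The median log2 change of the tested collagens ranged from -0.95 to 0.03 in the leave-one-out fits, that of Col3a1 from -3.06 to -0.08, Col18a1 from -2.47 to -0.03, Col15a1 from -2.22 to -0.68 and Col12a1 from -2.10 to -0.73. Without male A and male C together, an alternative chosen after seeing the data, Col3a1 was at 0.031 and Col18a1 at 0.38, reversed in direction; the fit holds 1 male library, assumed to vary like the females. Adjusted p over the alternatives (edgeR, DESeq2 and limma) ran from 0.00137 for Col3a1, 0.0861 for Col18a1, 0.204 for Col15a1 and 0.278 for Col12a1 up to 1.000. DESeq2 gave no adjusted p for Col3a1, so the range for that gene rests on edgeR and limma. With plain totals the all-gene median shifted by -0.11 (log2), and no other scaling moved it by more than 0.1. Depth limits the 10 untested collagens and the chains under 10 counts.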
